A study of Mus musculus with 54 samples.

Results

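F121-6 is a line of mouse embryonic stem cells (ESCs), labelled female, from a cross of the 129 and Cas (Mus castaneus) strains, so its autosomes come as 1 copy from each strain. Replication timing in these cells was compared between 2 culture conditions: on feeders, a layer of mouse embryonic fibroblasts inactivated with mitomycin-C under ES medium, and in feeder-free 2i, an N2B27 medium on gelatin with a MEK inhibitor (1 uM), a GSK3 inhibitor (1-Azakenpaullone, 4.25 uM) and LIF (1000 U/ml). The rule took the 8 libraries of F121-6 out of 54 in the series, namely 2 profiles on feeders and 2 profiles in 2i, each made from 1 early and 1 late S phase library. All autosomal windows were used, 43941 of 46268 in the file. The word MEF in the profile names of these ESCs was read as the feeder condition. The labels do not say whether profiles of the same number are from separate cultures, so p-values measure the spread between these profiles, which may be technical. They do not give the serum or LIF of the feeder medium or how long the cells had been in either condition. F121-6 is a single line, and the medium cannot be told apart from anything else that differed between the cultures on feeders and those in 2i.

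Cells copy their chromosomes in a set order during S phase. Gene-rich, transcribed and open chromatin tends to replicate early and compact chromatin at the nuclear edge late, and large domains change their place in this order when stem cells differentiate. Repli-Seq measures the order by labelling new DNA with BrdU, sorting cells into early and late S phase and sequencing the new DNA of each fraction. In 2i medium, blocking the ERK pathway and activating the Wnt pathway, together with LIF signalling through STAT3, keeps mouse ESCs in a uniform naive state with low DNA methylation, whereas cultures on feeders are more mixed and usually hold more DNA methylation.

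The deposited value of a window is the log ratio of early over late signal for 1 allele in 50 kb of mm10, read here as log2. The mean of the 129 and Cas columns is called timing below; a value above 0 means that the window replicated early. A difference is feeders minus 2i, so a positive one means earlier replication on feeders. Windows are called later or earlier where limma, run across all autosomal windows, gave an adjusted p (Benjamini-Hochberg) under 0.05 and the difference was 0.5 or more in size.

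The repeat profiles were noisier on feeders than in 2i. Over all windows the profiles correlated at 0.954 with each other on feeders and at 0.978 in 2i, against 0.934 to 0.950 between the conditions (Pearson's r across windows, which are not independent). The 2 feeder profiles differed by 0.5 or more in 45.9% of windows and the 2 profiles in 2i in 28.2%. In F121-9, a line of the same cross grown in both conditions, these shares were 14.2% on feeders and 15.7% in 2i. The files hold no expression and no read counts, so neither cell type markers nor the depth of a library could be read from them.

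F121-6 replicated 5266 of 43941 windows at a different time on feeders than in 2i, which is 12.0% of the autosomes. On feeders 3043 windows were later (6.93%) and 2223 were earlier (5.06%). The later windows had a median timing of -1.24 on feeders, against 0.23 in 2i, and the earlier windows one of 0.24 on feeders, against -1.04 in 2i. Of the later windows 753 (24.7%) were late on feeders and early in 2i, while 544 of the earlier windows (24.5%) were early on feeders and late in 2i. The other called windows moved within the early or the late part of S phase. Over all windows the difference had a median of 0.0052 and an SD of 0.69. The 4 deposited profiles had nearly the same mean, between -0.61 and -0.60, so an overall shift could not be read from them.

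The count of calls rests on the profiles used. It was 808 without 2i replicate 2, 2118 without 2i replicate 1 and 8257 without feeders replicate 2, and in these fits the lone profile of a condition was assumed to vary like the other groups. With the 4 F121-6 profiles alone, and without the profiles of F121-9 to estimate the spread, 1844 windows were called, of which 1834 were among the 5266. The SD between repeats was 0.27 on feeders and 0.26 in 2i in F121-9, against 0.48 and 0.34 in F121-6. The pooled spread behind the 5266 calls was thus on average smaller than that of F121-6 alone. The smallest called difference was 0.82, since smaller ones did not pass the adjusted p. All 5266 called windows had both feeder values on 1 side of both 2i values. The same was true of 24.8% of all windows with feeders above 2i and 26.2% with feeders below.

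Called windows of 1 direction lay next to each other. Adjacent windows correlated at 0.980 to 0.985 within the F121-6 profiles, so their calls are not independent and runs alone do not show domains. Joined over gaps of at most 2 windows, called windows formed 491 regions of at least 200 kb. Of these, 288 were later on feeders (median 350 kb, 120.4 Mb in all) and 203 earlier (median 250 kb, 65.2 Mb in all). The longest reached 1650 kb among later regions and 1200 kb among earlier ones. No placed protein-coding gene overlapped 26 of the 288 later and 49 of the 203 earlier regions. Called windows were found on all 19 autosomes, from 9.14% of windows on chromosome 15 to 14.3% on chromosome 14.

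The regions with the largest delay on feeders, of which 9 are described, hold genes of many functions. The largest was on chr3:154500001-154900000, which holds Cryz, a quinone reductase, Tyw3, an enzyme of tRNA wybutosine synthesis, and Erich3. Its mean timing was -3.29 and -2.99 on feeders, against -0.38 and -0.45 in 2i. Its window of largest difference differed by -3.25 ± 0.31 (SE, limma adjusted p = 0.000722). The region was late in every profile and moved to near the end of S phase on feeders.

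The region of Pdzrn3, a ubiquitin ligase, Ppp4r2, a regulatory subunit of protein phosphatase 4, and Gxylt2, which adds xylose to Notch-type repeats, spans chr6:100600001-101750000. It had -1.92 and -1.64 on feeders, against 0.48 and 0.66 in 2i, and was thus late on feeders and early in 2i over its 23 windows on average. The region on chr4:84950001-85650000, with the centriolar gene Cntln, the synaptic endocytosis gene Sh3gl2 and the matrix gene Adamtsl1, had -1.21 and -0.88 on feeders, against 1.06 and 1.31 in 2i. On chr13:93300001-94250000, around Dmgdh and Bhmt2 of choline and methionine metabolism and the lysosomal sulfatase Arsb, the values were -0.86 and -0.21 on feeders and 1.52 and 1.82 in 2i. These regions were late on feeders and early in 2i in every profile.

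The region of Kdr, the receptor for vascular endothelial growth factor and a marker of early mesoderm, lies on chr5:75400001-76450000 with Srd5a3 and Tmem165, 2 genes of protein glycosylation. It had -0.88 and -0.56 on feeders, against 1.29 and 1.61 in 2i. Car8, which encodes a carbonic anhydrase relative without enzyme activity, was the only protein-coding gene of the region on chr4:7850001-8400000, with -1.85 and -1.30 on feeders, against 0.43 and 0.59 in 2i.

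The region on chr17:50050001-51250000 holds Dazl, an RNA-binding protein gene of germ cells whose promoter is methylated in somatic cells, together with Plcl2 and Tbc1d5. It had -2.08 and -1.80 on feeders, against -0.07 and 0.35 in 2i. The region on chr1:57300001-58100000 around Maip1 and Tyw5, another enzyme of wybutosine synthesis, was at 0.04 and -0.03 on feeders and clearly early in 2i, at 1.99 and 2.16. The region on chr11:108550001-109100000 holds Cep112, a centrosomal gene, and Axin2, a negative feedback target of Wnt signalling, and had -2.11 and -1.53 on feeders, against 0.29 and 0.16 in 2i. Over these 9 regions the adjusted p of the window of largest difference ran from 0.000722 to 0.00135.

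**Figure D1:**
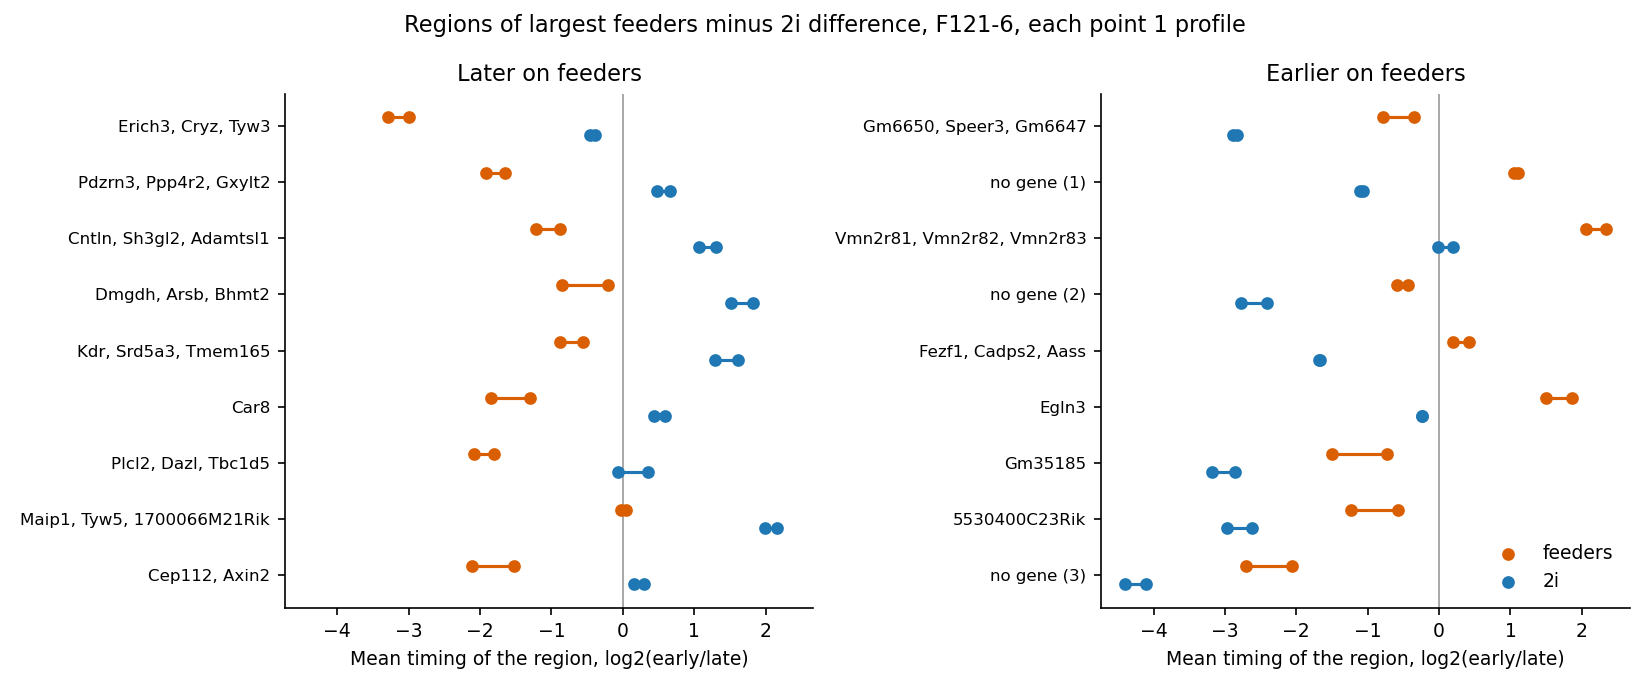
Mean timing (log2 of early over late) of 9 regions among those with the largest delay on feeders (left) and 9 among those with the largest advance (right) in F121-6, labelled by up to 3 nearest protein-coding genes. Each point is 1 profile, with the feeder profiles drawn above the 2i profiles and a line joining the profiles of a condition. In all 18 regions the conditions do not overlap, and the vertical line at 0 shows which regions were early in 1 condition and late in the other.

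The described regions of largest advance on feeders held fewer genes, and 3 of the 9 held none. Over all regions the earlier ones were also shorter, with a median of 250 kb against 350 kb. Over all called windows, gene starts per window were 0.397 where earlier and 0.345 where later. The largest spans chr5:13450001-14200000, around Speer3, a testis gene family member, Gm6650 and Gm6647. It had -0.35 and -0.79 on feeders, against -2.83 and -2.89 in 2i, and its window of largest difference differed by 3.06 ± 0.33 (SE, limma adjusted p = 0.001). The region was late in all 4 profiles and nearer to mid S phase on feeders. A region without a gene on chr15:33750001-33950000 was early on feeders, at 1.10 and 1.05, and late in 2i, at -1.11 and -1.07. A cluster of vomeronasal receptor genes, Vmn2r81, Vmn2r82 and Vmn2r83, on chr10:79250001-79500000 had 2.33 and 2.06 on feeders, against -0.01 and 0.19 in 2i.

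The region of Fezf1, a transcription factor of forebrain development, Cadps2, a gene of vesicle release, and Aass, an enzyme of lysine breakdown, spans chr6:22700001-23500000. It was slightly early on feeders, at 0.42 and 0.20, and late in 2i, at -1.66 and -1.68. Egln3, a prolyl hydroxylase that marks hypoxia-inducible factor for breakdown, was the only protein-coding gene of the region on chr12:53750001-54550000. Its timing was 1.86 and 1.50 on feeders, against -0.23 and -0.24 in 2i.

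The 4 other regions stayed late in both conditions. Gene-free regions on chr10:46450001-47100000 and chr5:46700001-46900000 differed by 2.08 and 1.86 between feeders and 2i. The region of Gm35185 on chr3:91650001-91950000 and that of 5530400C23Rik on chr6:133200001-133450000 each differed by 1.90. Over the 9 earlier regions the adjusted p of the window of largest difference ran from 0.000722 to 0.00621.

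**Figure D2:**
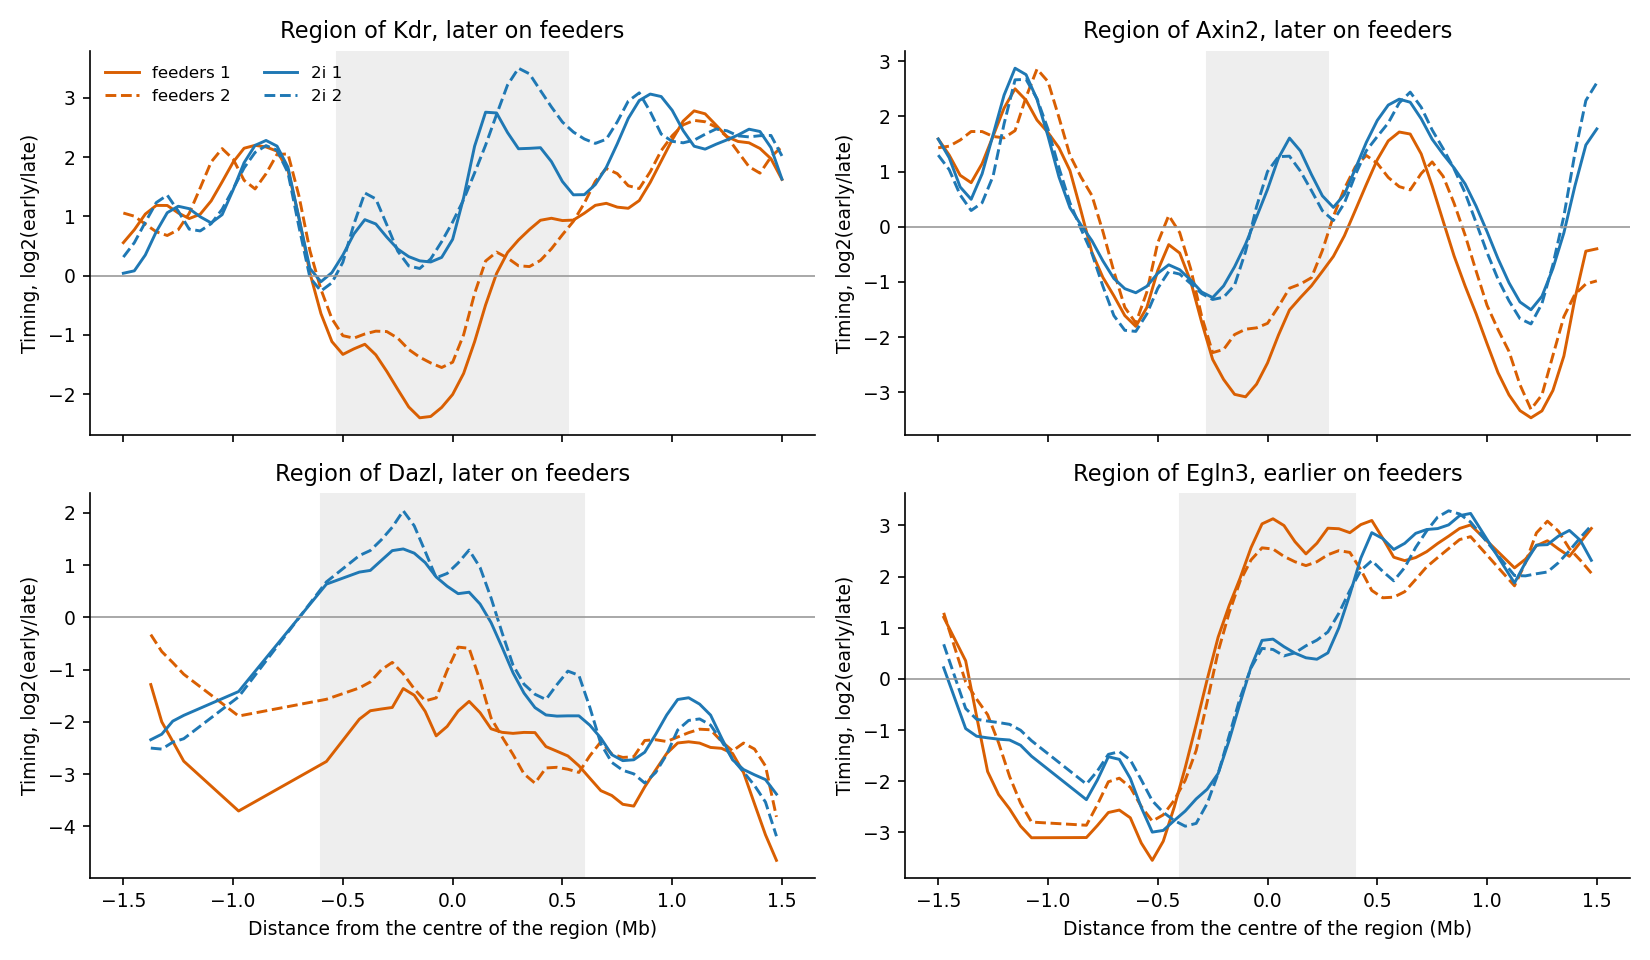
Timing (log2 of early over late) over 1.5 Mb to each side of the centre of the regions of Kdr, Axin2, Dazl and Egln3 in F121-6, with the feeder profiles in orange and the 2i profiles in blue, solid for replicate 1 and dashed for replicate 2. The grey band is the called region; inside it the feeder profiles run below the 2i profiles at Kdr, Axin2 and Dazl and above them at Egln3, and outside it they lie closer together or cross at most positions. Straight stretches in the Dazl and Egln3 panels bridge windows that the file does not list.

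Delay on feeders was most frequent in the middle of the timing order. Windows were ranked by their 2i timing in other 129 and Cas lines (F121, F123 and Cas129), which share no profile with this comparison, and cut into 10 equal bins. Later windows made up 14.9% of the 5th bin from the late end and between 8.38% and 13.2% of the bins from the 6th to the 8th. They made up 0.0683% of the latest bin and 1.09% of the earliest. Earlier windows made up 6.62% of the latest bin and 8.92% of the 7th bin, and their share was lowest in the 9th bin, at 0.364%.

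The median difference over all windows of a bin was 0.41 in the latest bin and 0.29 in the next, and it was -0.23 in the 4th. The earliest bin had 0.11 and the bin before it -0.24. F121-9 had a median difference of 0.19 in the latest bin and -0.15 in the 4th, in the same direction as F121-6, but of 0.05 in the 9th and -0.12 in the earliest, in the opposite direction. The SD of timing over windows was 2.24 and 2.26 on feeders, against 2.34 and 2.32 in 2i, and its part in the values of the outer bins was not tested.

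**Figure D3:**
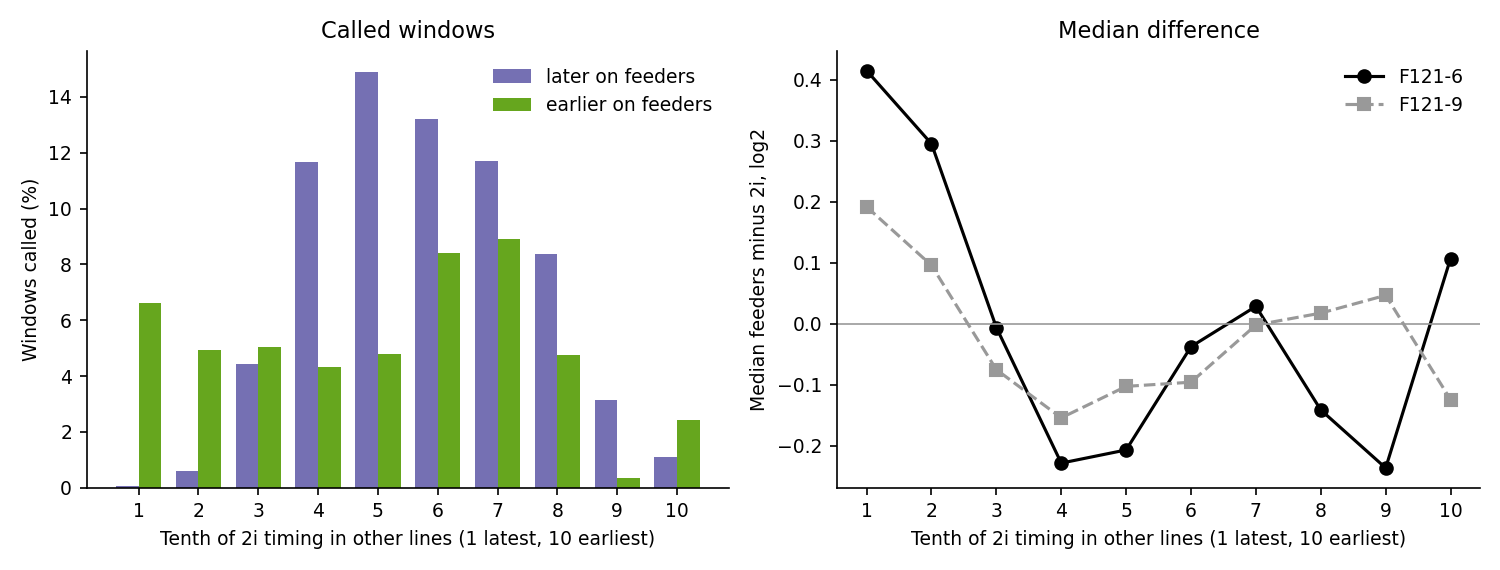
Left, share of windows called later and earlier on feeders in F121-6 (%) in 10 equal bins of 2i timing in other lines, from the latest (1) to the earliest (10). Right, median feeders minus 2i difference (log2) of all windows of a bin, in F121-6 (black circles) and F121-9 (grey squares). Later windows peak at 14.9% in bin 5, and the median difference is above 0 in bins 1 and 2 in both lines.

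Genes were placed by the window of their start. Of 19287 autosomal protein-coding genes so placed, 883 were earlier on feeders (4.58%) and 1051 later (5.45%). Called windows held 0.345 gene starts per window where later on feeders and 0.397 where earlier, against 0.439 over all windows. The promoters of genes in earlier windows had a median of 10 CpG dinucleotides in 300 bases, those in later windows 16 and all placed promoters 15 (RefSeq, GRCm38.p6). Among 15 gene lists, 235 genes were measured, of which 9 were earlier and 19 later on feeders. These shares of 3.83% and 8.09% stand beside the 4.58% and 5.45% of all gene starts, and the lists were not tested as sets. All 28 called genes differed in the same direction on both alleles, as did 99.6% of all called windows. The call uses the mean of both alleles and so favours this.

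The promoters of the list genes with the largest advance and the largest delay among those in the RefSeq promoter table show the range of CpG content, with each CpG in capitals. Col6a1 encodes a collagen VI chain of the fibroblast matrix; its promoter, on the minus strand of chr10:76725995-76726294, holds 3 CpG, and 82.8% of all promoters hold as many or more. The promoter of Axin2, on the plus strand of chr11:108920099-108920398, holds 31, and 14.4% of all promoters hold as many or more. Among promoters in earlier windows, 76.2% hold as many as Col6a1 or more. Among those in later windows, 16.6% hold as many as Axin2 or more. The 50 kb windows do not resolve these 300 bases, so the sequences describe the genes and not the sites of change.
Col6a1: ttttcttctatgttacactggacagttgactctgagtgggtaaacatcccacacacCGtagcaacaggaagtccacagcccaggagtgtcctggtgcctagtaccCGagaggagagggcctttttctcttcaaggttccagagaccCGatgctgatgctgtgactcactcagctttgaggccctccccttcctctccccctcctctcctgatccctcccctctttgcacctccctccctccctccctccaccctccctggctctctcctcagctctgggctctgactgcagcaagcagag
Axin2: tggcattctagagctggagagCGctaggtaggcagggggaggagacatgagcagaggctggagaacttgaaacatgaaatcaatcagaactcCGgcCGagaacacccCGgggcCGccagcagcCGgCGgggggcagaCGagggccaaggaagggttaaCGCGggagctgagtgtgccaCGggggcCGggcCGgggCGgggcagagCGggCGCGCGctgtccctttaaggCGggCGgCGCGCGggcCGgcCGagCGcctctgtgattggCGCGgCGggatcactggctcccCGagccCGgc

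None of the 23 measured genes of naive pluripotency was called. This count and those of the lists below stand beside the 4.58% of all gene starts earlier and 5.45% later on feeders. In so small a list, 0 calls are not read as a trait of its genes. All 23 were early in both conditions, with a median timing of 1.89 on feeders and 2.01 in 2i. Nanog, a core transcription factor of ESCs, had 1.38 and 0.85 on feeders, against 0.50 and 0.07 in 2i, a difference of 0.82 ± 0.28 (SE) that did not pass (limma adjusted p = 0.0796). Without feeders replicate 2 it passed, with a difference of 1.09. In F121-9 the same window was at 2.77 and 2.67 on feeders and at 3.06 and 2.99 in 2i, above every F121-6 profile; the gap between the lines was not tested.

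Pou5f1, which encodes Oct4, had 2.11 and 1.85 on feeders, against 1.86 and 0.80 in 2i (difference 0.65 ± 0.34 SE, limma adjusted p = 0.226). Sox2, its partner factor, had 2.48 and 1.44 on feeders and 2.12 and 2.11 in 2i, with overlapping profiles. Klf4, Esrrb and Zfp42, factors that are high in naive cells, differed by -0.24, -0.33 and -0.35 between feeders and 2i, with adjusted p of 0.69, 0.432 and 0.426 in limma. Dppa2, an activator of early embryonic genes, differed by -0.70 ± 0.34 (limma adjusted p = 0.203), and its profiles overlapped, with 2.34 and 1.24 on feeders, against 2.33 and 2.64 in 2i. It passed without feeders replicate 1, with a difference of -1.25, and was at -0.15 without feeders replicate 2.

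Of 22 genes of the formative and primed states, which follow the naive state in the embryo, 3 were earlier and 1 was later on feeders. Fgf5, a growth factor gene that marks this exit, was late throughout, with -1.63 and -1.52 on feeders, against -2.90 and -2.72 in 2i (difference 1.24 ± 0.25, limma adjusted p = 0.0121). Nodal, a TGF-beta family signal, was early throughout, with 2.63 and 2.54 on feeders, against 1.59 and 1.32 in 2i. Sox4, a transcription factor gene, had 1.39 and 0.93 on feeders, against -0.18 and -0.34 in 2i, and so went across the middle of S phase. Lin28b, which blocks maturation of let-7 microRNAs, was later, with -1.26 and -1.17 on feeders, against -0.04 and 0.42 in 2i.

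Other genes of this list did not pass. Otx2, a factor of the primed epiblast, differed by -0.49 ± 0.25 (limma adjusted p = 0.224) and Lefty1, a Nodal antagonist, by 0.49 ± 0.51 (adjusted p = 0.558 in limma). The Lefty1 profiles lay far apart within each condition, at 0.96 and 2.51 on feeders and 1.95 and 0.53 in 2i. The DNA methyltransferase genes Dnmt3a and Dnmt3b were early in every profile, between 1.85 and 2.81, and differed by -0.14 ± 0.35 and -0.04 ± 0.26 between feeders and 2i. Their adjusted p were 0.821 and 0.929 in limma. The alleles of Dnmt3b differed in opposite directions, by -0.67 on the 129 allele and 0.58 on the Cas allele.

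Called genes of the pathways that the 2i compounds act on can be read against the 4.58% of all gene starts earlier and 5.45% later on feeders. Of 17 genes of ERK targets and feedback, 1 was earlier on feeders: Dusp4, a phosphatase that switches ERK off, with 1.10 and 1.52 on feeders, against 0.03 and -0.03 in 2i. Of 17 targets of Wnt and beta-catenin, 2 were later. Axin2 had -1.51 and -1.11 on feeders, against 1.61 and 1.28 in 2i, the largest difference of any list gene (-2.75 ± 0.26, limma adjusted p = 0.000722). Apcdd1, a Wnt inhibitor, had -0.79 and -0.39 on feeders, against 1.60 and 0.93 in 2i. The list's median was 0.19, of the opposite sign, with 13 of 17 genes above 0.

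Of 13 genes of the LIF and STAT3 pathway, 2 were later on feeders but early in every profile: Il6st, which encodes the receptor subunit gp130, at 2.05 and 1.64 on feeders and 2.83 and 2.70 in 2i, and Pim3, a kinase gene and STAT3 target, at 2.99 and 1.88 on feeders and 4.50 and 3.52 in 2i. Both passed narrowly, with limma adjusted p of 0.0474 and 0.0423. Among 13 genes of DNA methylation, Tet2, which oxidises methylcytosine, and Mbd2, which binds it, were later on feeders, by -1.15 ± 0.28 and -1.26 ± 0.25. Mbd2 had 0.08 and -0.05 on feeders, against 1.17 and 1.38 in 2i. None of the 13 was earlier.

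Germline genes that somatic cells keep methylated had 1 earlier and 2 later members of 16. Dazl had -1.79 and -1.24 on feeders, against 0.90 and 1.28 in 2i. Sycp3, a part of the meiotic chromosome axis, was later, at 0.95 and 1.93 on feeders and 2.54 and 3.11 in 2i, whereas its partner Sycp2 was earlier, at 0.46 and 0.21 on feeders and -1.05 and -1.17 in 2i. Of 11 genes of the 2-cell-like state, a rare state in ESC cultures, Tcstv3 was later on feeders, by -1.66 ± 0.31. It belongs to a multigene family, so reads over it may be shared with near copies.

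Fibroblast genes were listed because feeder cells are fibroblasts. Of 23 measured, Col6a1 was earlier on feeders, at 2.59 and 3.31, against 1.07 and 1.23 in 2i. The intermediate filament gene Vim, the smooth muscle actin gene Acta2 and Fap were later, by -1.47, -1.13 and -0.91. In the MEFs of the series the timing of Vim was 2.95 and that of Acta2 2.93. The feeder profiles of F121-6 were at -1.62 and -1.76 for Vim and -2.92 and -2.42 for Acta2. Both genes are among those called later, and MEF values of the other markers are not given here. Any part of feeder cells in the profiles was not tested. Over all windows called later on feeders, MEF timing had a median of 0.18, and over those called earlier -0.47, against -0.02 over all windows. MEF columns have other overall means than ESC columns, so these levels are only roughly on 1 scale.

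Markers of other lineages moved in both directions. In endoderm, Foxa1, a pioneer factor, and Afp, alpha-fetoprotein, were earlier on feeders, by 1.75 ± 0.33 and 1.11 ± 0.27. Lama1, a basement membrane laminin, and Cubn, an uptake receptor, were later, by -2.60 ± 0.29 and -1.07 ± 0.24. Lama1 had -1.07 and -0.56 on feeders, against 1.91 and 1.65 in 2i. Cubn and Vim lie close together on chromosome 2 and are not independent. Kdr, the only called gene of 14 in mesoderm, had -1.65 and -0.996 on feeders, against 1.32 and 1.28 in 2i.

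Of 17 neural genes 1 was called, later on feeders. Elf5, a trophoblast factor, was later by -0.98 ± 0.26, Gmnn, which encodes the licensing inhibitor geminin, by -1.08 ± 0.29, and they were the only called genes of 12 and 19 in their lists. Of 16 housekeeping genes Ppia, the cyclophilin A gene often used as a loading control, was earlier on feeders, at 1.91 and 1.91, against 1.31 and 0.47 in 2i (limma adjusted p = 0.0491).

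**Figure D4:**
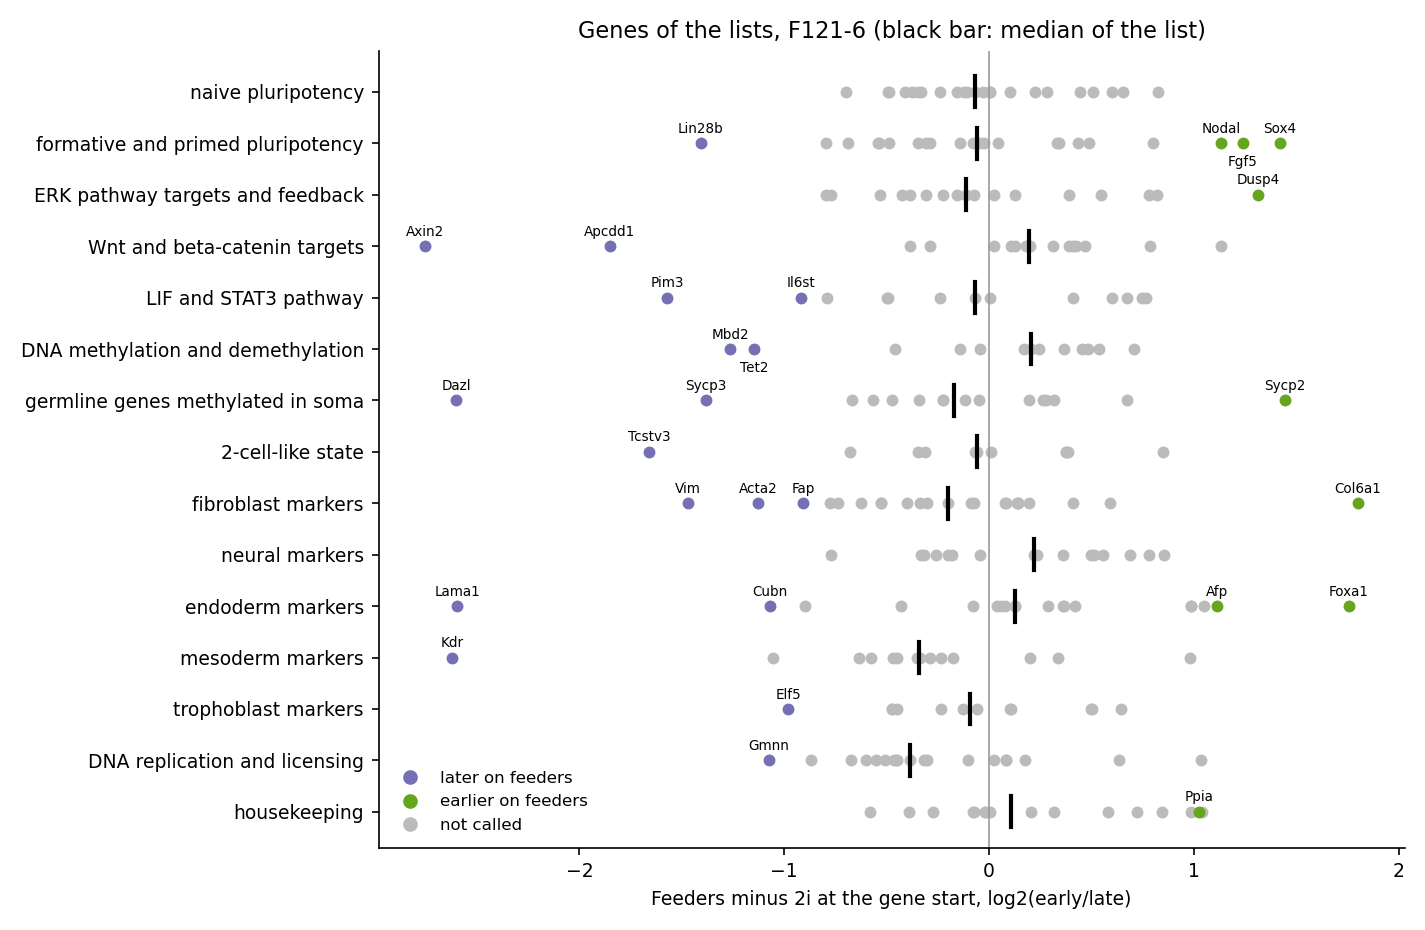
Feeders minus 2i difference (log2) at the start of the reported genes of the 15 lists in F121-6. Each point is 1 gene, coloured where called, and the black bar is the median of the list. The called genes are named, the bar is taken over the whole list, and most points of every list lie between -1 and 1, and Axin2, Kdr, Dazl and Lama1 lie furthest to the left.

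Most called windows differed in the same direction on both alleles. Of the 5266 called windows 5245 (99.6%) had the same sign of difference on the 129 and on the Cas allele, against 68.0% of all windows. Since the call uses the mean of both alleles, it favours such windows. In windows later on feeders the median difference was -1.35 on the 129 allele and -1.31 on the Cas allele, and in windows earlier on feeders it was 1.24 and 1.30. Over all windows the differences of the 2 alleles correlated at 0.541; the alleles of a profile share their cells and libraries.

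Tested alone, the 129 allele gave 3060 called windows (1179 earlier and 1881 later on feeders) and the Cas allele 3783 (1559 earlier and 2224 later). Called on both were 1069 windows, which is 34.9% of the 129 calls and 28.3% of the Cas calls. All 491 regions had the same direction on each allele, which their selection on the mean of both alleles favours. Among the named regions, that of Egln3 differed by 2.54 on the 129 allele and 1.29 on the Cas allele, and the cluster of Vmn2r81 to Vmn2r83 by 1.61 and 2.60. Sox4 differed by 0.66 on the 129 allele and 2.18 on the Cas allele, and Tet2 by -1.87 and -0.43.

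Whether the gap between alleles itself differed between conditions was tested as the change of the 129 minus Cas difference. No window passed (limma, smallest adjusted p = 0.0834), with 7748 windows (17.6%) at an unadjusted p under 0.05. This depended on how the spread was estimated: 1850 windows passed in a fit of all 13 ESC profiles of 129 and Cas hybrids, 1124 passed without feeders replicate 1 and 1537 without feeders replicate 2. Unequal change of the alleles, such as that of Sox4, is therefore given as values without a call.

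The difference in F121-9 uses no F121-6 profile, but both lines entered the same limma fit. They share its estimate of spread for each window. A window of small spread was thus favoured for a call in both lines, so their calls are not independent. F121-9 had 1202 called windows (2.74%), of which 768 were later and 434 earlier on feeders. In F121-9, 33.3% of windows differed by 0.5 or more, against 43.8% in F121-6. Repeat profiles alone differed this much in 45.9% of windows on feeders and 28.2% in 2i in F121-6. In F121-9 they did so in 14.2% and 15.7%. Single feeder and 2i profiles of F121-6 differed this much in 47.6% to 52.8% of windows. The part of repeat noise in the gap between the lines was not tested. In the windows called later in F121-6, the median difference in F121-9 was -0.71, and 89.7% of them lay below 0. In the windows called earlier it was 0.33, and 74.1% lay above 0. Over all windows 60.5% had the same sign in both lines, and the differences correlated at 0.424 across windows. Windows called in both lines numbered 640, of which 636 had the same direction; the 640 are 53.2% of the calls in F121-9 and 12.2% of those in F121-6.

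Of the regions, 273 of 288 later ones and 164 of 203 earlier ones had the same sign in F121-9. All 18 described regions did, each with a smaller difference than in F121-6, where they had been chosen for their size. The Kdr region differed by -1.53 in F121-9, that of Pdzrn3 by -1.51 and that of Axin2 by -0.80, whereas the region of Dmgdh differed by -0.40 and that of Fezf1 by 0.44. Of the called list genes, 18 of 19 later ones and 5 of 9 earlier ones had the same sign in F121-9. Of the 9 earlier genes, Nodal, Ppia, Foxa1 and Afp had the opposite sign in F121-9, at -0.34, -0.26, -0.19 and -0.03, and Dusp4 and Sox4 differed by 0.05 and 0.07 there.

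The difference between the lines was tested for each window. No window passed (limma, smallest adjusted p = 0.140), and 6570 (15.0%) had an unadjusted p under 0.05. At the 18 described regions the adjusted p of this test ran from 0.182 to 0.252, and at Axin2, Kdr and Lama1 it was 0.197, 0.212 and 0.182. None of the smaller differences in F121-9 is thus shown to differ from those in F121-6, nor shown to be alike. In simulated data with 200 of 43941 windows changed by 1 or 2 in F121-6 alone, this test called none of them. Noise there was independent between windows, and fewer windows were changed than were called in the data. The simulation therefore does not give the power of this test in the data.

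**Figure D5:**
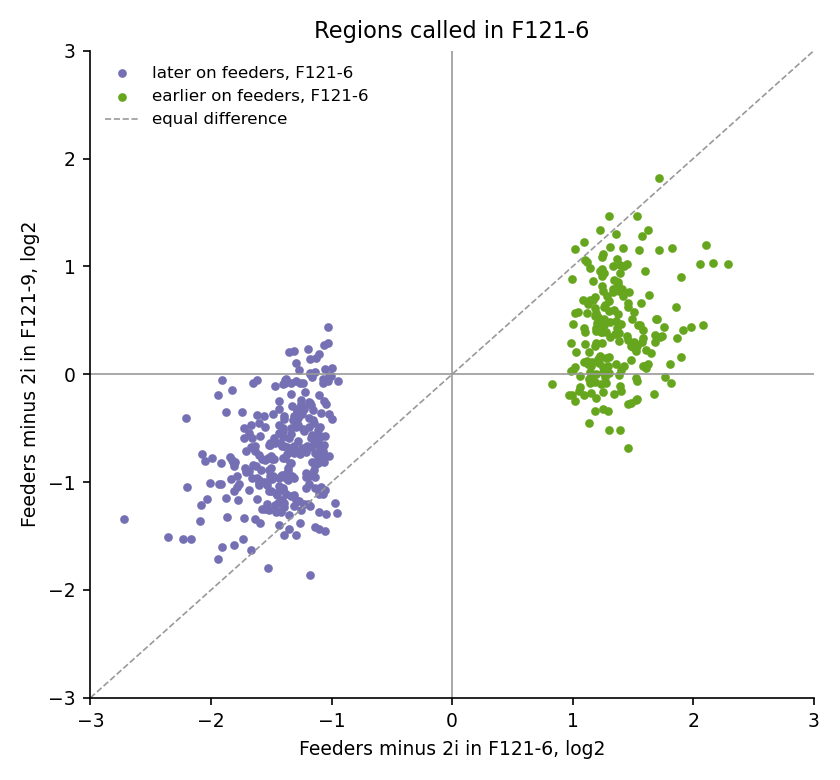
Feeders minus 2i difference (log2) of the 491 regions called in F121-6 (horizontal) against the mean difference of the same windows in F121-9 (vertical), with regions later on feeders in purple and earlier ones in green. The dashed line marks equal differences; 273 of 288 later regions lie below 0 in F121-9 and 164 of 203 earlier regions above 0.

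Profiles of other lines were also set beside the called windows. These windows were chosen by the F121-6 values, so values of other profiles tend to lie between its 2 condition means. Where F121-6 was later on feeders, its 2i timing had a median of 0.23, but the mean 2i timing of F121, F123 and Cas129 had one of -0.51. In those windows 56.3% to 60.9% of values in the F121 and F123 profiles in 2i, and 34.0% and 38.8% in the Cas129 profiles in 2i, lay nearer to the 2i mean of F121-6 than to its feeder mean. For F121-9 the shares were 16.3% and 18.2% on feeders and 62.5% and 61.9% in 2i. In windows earlier on feeders, between 63.8% and 81.2% of values lay nearer to the 2i mean of F121-6 in each 2i profile of the other lines, and 44.5% and 46.0% in the feeder profiles of F121-9. At Lama1, 2i timing was 1.91 and 1.65 in F121-6 and had a mean of 0.04 in the other 3 lines.

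The change from 2i to neural precursor cells (NPCs) in Cas129 ran little along with the change between conditions in F121-6. The 2 correlated at 0.072 across windows. The median change of Cas129 NPCs was 0.04 in windows later on feeders, 0.24 in windows earlier on feeders and 0.05 over all windows. In windows later on feeders 48.8% lay below 0 in NPCs, against 48.2% of all windows, and in windows earlier on feeders 59.1% lay above 0, against 51.8%.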

How the data were processed

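Timing comes from Repli-Seq libraries of early and late S phase. Per the file headers and labels, the authors deposited 1 table of allele-specific log ratios of early over late signal in windows of 50 kb, read here as log2; the base is not stated, and a natural log or log10 would change the size of every difference but not its sign. The submitters' processing notes name Bowtie2, SAMtools, bedtools and mm10; how reads were given to alleles, smoothed or scaled is not given in the sources used here. Read counts were not used here, so depth is unknown and no counting interval is given.

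For each profile the mean of both allele columns was taken. The 4 profiles of F121-6 and the 4 of F121-9 entered 1 limma fit (limma 3.58.1, R 4.3.3, two-sided) with a mean for each of 4 groups of line and medium. The difference between lines, and the change of the 129 minus Cas difference, were contrasts of the same design. Genes were placed by RefSeq (GRCm38.p6) starts; 3899 of 19287 without a strand in the table used were placed by their midpoint. Genes that lie in no listed window were not measured. Named in the text are, for each direction, the 10 regions that differed most on average with up to 3 nearest genes, up to 3 called genes per list and direction, and 12 genes of pluripotency and its exit in any case; members and lists were chosen with earlier results of these data known. Some regions and genes that this rule takes are not reported here. The fit was tested on simulated data with 200 of 43941 windows changed and noise independent between windows. It recovered none of the windows changed by 1 and 64% of those changed by 2, and the contrast between lines recovered none. With so few changed windows, these results do not give the power in the data. Alternatives were other scalings, single alleles, other sets of profiles, a replicate block and left-out profiles. The X and Y were left out.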

Additional observations from a re-analysis of the deposited data

How the results depend on the processing

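For many alternatives a kept direction was fixed in advance. Fits with F121-6 profiles only, with 13 ESC profiles or with the replicate block left the difference itself unchanged. Called windows had both feeder values on 1 side of both 2i values, so leaving out 1 profile could not turn their sign. The 20 regions of largest difference kept their direction under every alternative run. In the fits that kept all 4 F121-6 profiles, 18 to 20 of them stayed called. The 28 called list genes also kept their direction under each; 5 to 24 of them stayed called when 1 profile was left out, 11 on the 129 allele, 16 on the Cas allele, 12 with F121-6 profiles only and 24 by the mean over the gene body. Axin2, Kdr, Dazl, Lama1 and Apcdd1 stayed called under all 15 alternatives, while Fap, Il6st and Pim3 did so under 5.

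The number of called windows was 1844 with F121-6 profiles only (663 earlier, 1181 later) and 3060 on the 129 allele (1179 earlier, 1881 later). Leaving out 1 profile gave 808 to 8257 calls, 251 to 3599 of them earlier and 557 to 4658 later. Called genes of the lists numbered 12 with F121-6 profiles only, 12 on the 129 allele and between 5 and 40 with 1 profile left out. Windows that differed by 0.5 or more made up 43.8%, with 49.9% on each allele alone and 46.3% to 50.01% with 1 profile left out. Regions of at least 400 kb numbered 176. Earlier windows made up 42.2% of calls, against 50.7% after median centring and 51.3% with 1 SD for all profiles; this centring moved the median of all windows by 0.07 or 0.08. A test of the difference between the lines called 0 windows with 1 profile left out and 1 window with the replicate block. The change of the 129 minus Cas difference passed in 1850 windows with 13 ESC profiles and in 0 to 1537 with 1 profile left out. The causes of these shifts were not tested.

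Replicate numbers do not pair the profiles by the labels. The replicate 1 minus replicate 2 differences on feeders and in 2i correlated at -0.207 across windows in F121-6. Over all 6 pairs of groups such correlations ran from -0.275 to 0.085. The F121-6 profiles of like number themselves correlated at 0.934 and 0.938 between feeders and 2i. The replicate block gave 3913 calls (1593 earlier, 2320 later), of which 3867 were among the 5266. With the numbers of the 2i profiles crossed, an alternative chosen after seeing the data, 6791 windows were called, and 1 window differed between the lines.

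Signs turned only at genes that were not called. With 1 profile left out, Klf4 ranged from -0.829 to 0.347, Sox2 from -0.673 to 0.361, Dnmt3a from -0.620 to 0.333, Dnmt3b from -0.175 to 0.0867 and Lefty1 from -0.284 to 1.27. Klf4 was at 0.105 on the 129 allele and -0.587 on the Cas allele. Zfp42 was at -0.773 on the 129 allele and 0.0772 on the Cas allele, and Dnmt3b at -0.669 and 0.581. Dnmt3b was at 0.0271 with median centring, 0.108 with 1 SD as well and 0.0498 with quantile normalization, and Dnmt3a at 0.014 with median centring and 1 SD.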
